A study of Mus musculus with 15 samples.

Results

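The SR proteins and the heterogeneous nuclear ribonucleoproteins (hnRNPs) were examined in the kidney of male C57BL/6 mice (C57BL/6J in the study's methods), 5 each at 3, 12 and 24 months of age. The members were all genes whose symbol begins with Srsf or Hnrnp, apart from the pseudogene Hnrnpa1l2-ps. They comprised 31 of the 33058 genes summed from the deposited table, namely 11 SR genes and 20 hnRNP genes. The labels name no transgene, deletion or treatment in any group, and age is the only difference they give. The RNA came from kidney tissue. The study's methods describe a kidney divided into several portions, and they do not state which region was sequenced. A change in the numbers of a cell type and a change of RNA within its cells cannot be told apart in such samples. The mice of 3 months are called young and those of 24 months old. The comparison of young with old mice was the main one, and the 12-month-old mice were compared with both.

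SR proteins bind short sequence elements in exons and generally favour the inclusion of those exons. The hnRNPs coat nascent transcripts, and several of them block splice sites or move mature RNA to the cytoplasm. Many genes of both families regulate their own level. They splice their own transcript into a form with an early stop codon, which is then destroyed by nonsense-mediated decay, or they keep an intron and hold the transcript in the nucleus. The share of such non-coding transcripts is therefore measured here beside the gene's level.

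The libraries held 5.03 to 6.13 Gb of aligned sequence at 3 months, 5.84 to 8.03 Gb at 12 months and 6.07 to 7.33 Gb at 24 months, with medians of 6.04, 7.17 and 7.00 Gb. Gene levels are in FPKM, that is fragments divided by transcript length and by library size, summed over a gene's transcripts. One 24-month-old mouse, replicate 32, held the lowest value of its age for 12 of the 20 hnRNP genes. Umod and Slc12a1, which mark the thick ascending limb of the kidney, averaged 886 and 208 FPKM at 3 months and 851 and 209 FPKM at 24 months. Of 5 markers of the proximal tubule, 0 passed in limma and 2 were lower at an unadjusted p under 0.05 at 24 against 3 months, namely Slc5a2 (86.6 to 58.1 FPKM, adjusted p = 0.0703, limma) and Slc5a12 (96.5 to 71.8 FPKM, adjusted p = 0.27, limma). In that comparison 3.47% of all genes were lower and 11.4% higher at an unadjusted p under 0.05, and 1.22% passed after adjustment. The sum of the 5 proximal tubule markers was 1528 to 1866 FPKM in young and 1414 to 1717 FPKM in old mice, and none of them was at 0 in every mouse of an age. At 24 against 3 months 2 principal cell markers had a median log2 fold change of -0.60, with 0 at an unadjusted p under 0.05 in limma. The 3 fibroblast and mural markers had a median of 0.43, with 1 higher. At 12 against 3 months the medians were -0.81, with 1 lower, and 0.78, with 3 higher. Of all genes, 2.9% were lower and 11.4% higher there. In both sets 0 passed after adjustment. The part of these markers in the members' changes was not tested.

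Of the 31 members, 3 rose between 3 and 24 months at an adjusted p under 0.05, and none fell. These were Hnrnpd, Hnrnpa1 and Srsf5. They were 9.68% of the members, against 1.22% of all 31755 genes tested and 2.19% of the 13360 genes with a mean of at least 1 FPKM. At an unadjusted p under 0.05, 9 members were higher and 0 were lower, while 11.4% of all genes were higher and 3.47% were lower. Old mice were all above young mice in 4 members (the 3 that passed and Hnrnpul1), as in 3.82% of all genes, and 0.91% of all genes were lower without overlap. The median log2 fold change of the members was 0.13, and that of all genes was 0.02. The adjusted p-values are from limma on log2(FPKM + 1) with Benjamini-Hochberg adjustment over all genes.

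The counts by family were as follows, and the difference between the families was not tested. Among the hnRNP genes, 20 of 20 had a higher estimate at 24 than at 3 months, with a median log2 fold change of 0.21, while 63.0% of all genes had a higher estimate. They included Hnrnpa0, which was listed at 0 in 5 mice, and Hnrnpu, whose log2 fold change was 0.0063 with means of 23.4 FPKM at 3 months and 23.3 FPKM at 24 months. Among the SR genes, 5 of 11 had a higher estimate, with a median of -0.0029. When FPKM were rescaled to a common sum, 6 of 11 did, with a median of 0.0055 beside 0.069 for all genes. The SR count lay between 4 and 7 when each mouse was left out in turn. It was 4 when only transcripts identical to the annotation were summed. The hnRNP count lay between 17 and 20 when each mouse was left out in turn, was 20 under both other scalings, and was 16 when only transcripts identical to the annotation were summed. The summed level of the hnRNP genes was 469 ± 18.9 FPKM (SD, n = 5) at 3 months, 531 ± 30.7 FPKM at 12 months and 570 ± 47.1 FPKM at 24 months. For the SR genes the sums were 140 ± 16.2, 146 ± 9.61 and 148 ± 13.8 FPKM.

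**Figure D1:**
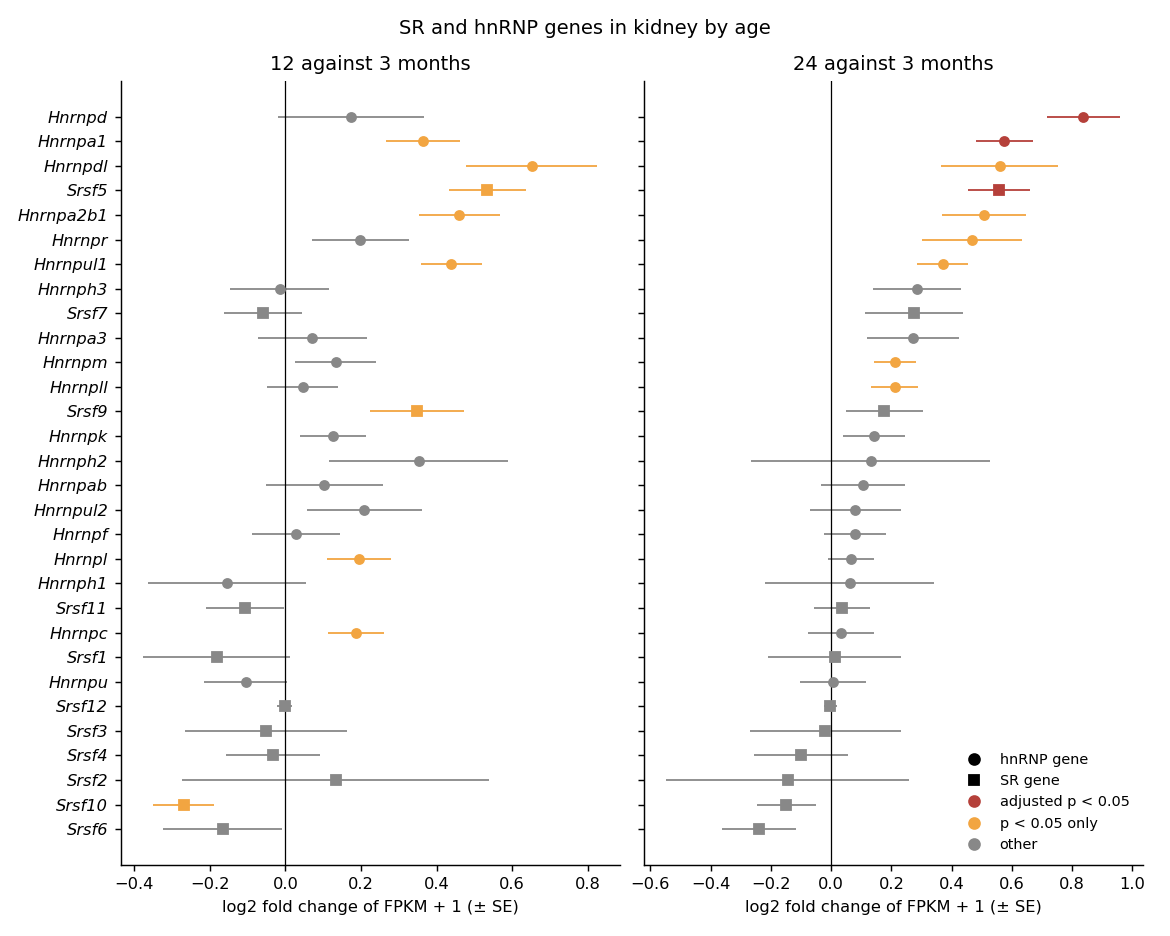
Log2 fold change of gene FPKM + 1 (x axis, points with standard errors) for 30 members (rows), at 12 against 3 months (left) and 24 against 3 months (right). Circles are hnRNP genes and squares are SR genes; Hnrnpa0 is left out because it was listed at 0 in 5 mice. All 19 hnRNP points of the right panel lie above 0, and the 3 red points are Hnrnpd, Hnrnpa1 and Srsf5.

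Hnrnpd encodes AUF1, which binds AU-rich elements of short-lived mRNAs. Its gene lies on the minus strand of chromosome 5 (99955935 to 99978938, GRCm38). The 5 young mice had 19.6, 19.9, 16.1, 14.002 and 15.9 FPKM. The 12-month-old mice had 18.2, 18.3, 28.7, 12.5 and 21.9 FPKM, and the old mice had 38.6, 32.6, 28.4, 29.1 and 27.7 FPKM. Every old mouse was above every young mouse, whereas the 12-month-old mice overlapped both ages. The log2 fold change at 24 against 3 months was 0.84 (SE 0.12, adjusted p = 0.0199, limma). Most of this level, 63.9% on average, was in transcripts assembled from the reads rather than annotated ones. With annotated transcripts alone the log2 fold change was 0.58 (adjusted p = 0.405, limma). Without the young mouse 9 the adjusted p was 0.0534 (limma). An antisense gene on the opposite strand, Gm17092, had a mean of 1.60 FPKM, and whether the quantification used strand is not stated in the sources used here.

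Hnrnpa1 encodes hnRNP A1, a splicing repressor that also binds the RNA of telomeres and shuttles to the cytoplasm. It is on the plus strand of chromosome 15 (103240432 to 103246692). Its levels were 26.9, 19.97, 23.3, 23.5 and 29.3 FPKM in the young mice, 32.5, 30.97, 34.4, 30.2 and 30.5 FPKM at 12 months, and 36.9, 34.3, 38.4, 37.6 and 37.05 FPKM in the old mice. The 3-month-old mice were below both other ages without overlap, and only 1 old mouse was under the highest 12-month-old mouse. At 24 against 3 months the log2 fold change was 0.57 (SE 0.095, adjusted p = 0.0300, limma). At 12 against 3 months it was 0.36 (SE 0.097, adjusted p = 0.14, limma), and at 24 against 12 months 0.21 (adjusted p = 0.64, limma). The call was lost, with adjusted p between 0.0525 and 0.0708 (limma), when the young mouse 5, 7 or 8 or the old mouse 31, 33, 34 or 35 was left out. With annotated transcripts alone the log2 fold change was 0.77 (adjusted p = 0.0788, limma). Processed pseudogenes resemble this gene: 9 matched its transcripts at 95% identity or more over at least 300 bases, and the 6 of them listed in the table summed to 5.10% of its FPKM. Reads may have been divided between these copies.

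Srsf5 encodes an SR protein that responds to growth signals, and it is on the plus strand of chromosome 12 (80945504 to 80950507). The young mice had 28.05, 25.5, 26.1, 22.3 and 23.7 FPKM, the 12-month-old mice 38.2, 30.9, 45.03, 34.95 and 35.99 FPKM, and the old mice 44.2, 32.95, 36.98, 41.9 and 32.1 FPKM. All mice of 12 and 24 months were above all young mice, and these later ages overlapped each other. The log2 fold change was 0.56 at 24 against 3 months (SE 0.10, adjusted p = 0.0396, limma), 0.53 at 12 against 3 months (SE 0.10, adjusted p = 0.0708, limma) and 0.02 at 24 against 12 months. Leaving out any of the 5 young mice, or the old mouse 31, 33 or 34, gave an adjusted p between 0.0618 and 0.0909 (limma), with annotated transcripts alone it was 0.0656, and with a robust variance prior 0.0542. None of the other 10 SR genes passed after adjustment in any comparison in limma.

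**Figure D2:**
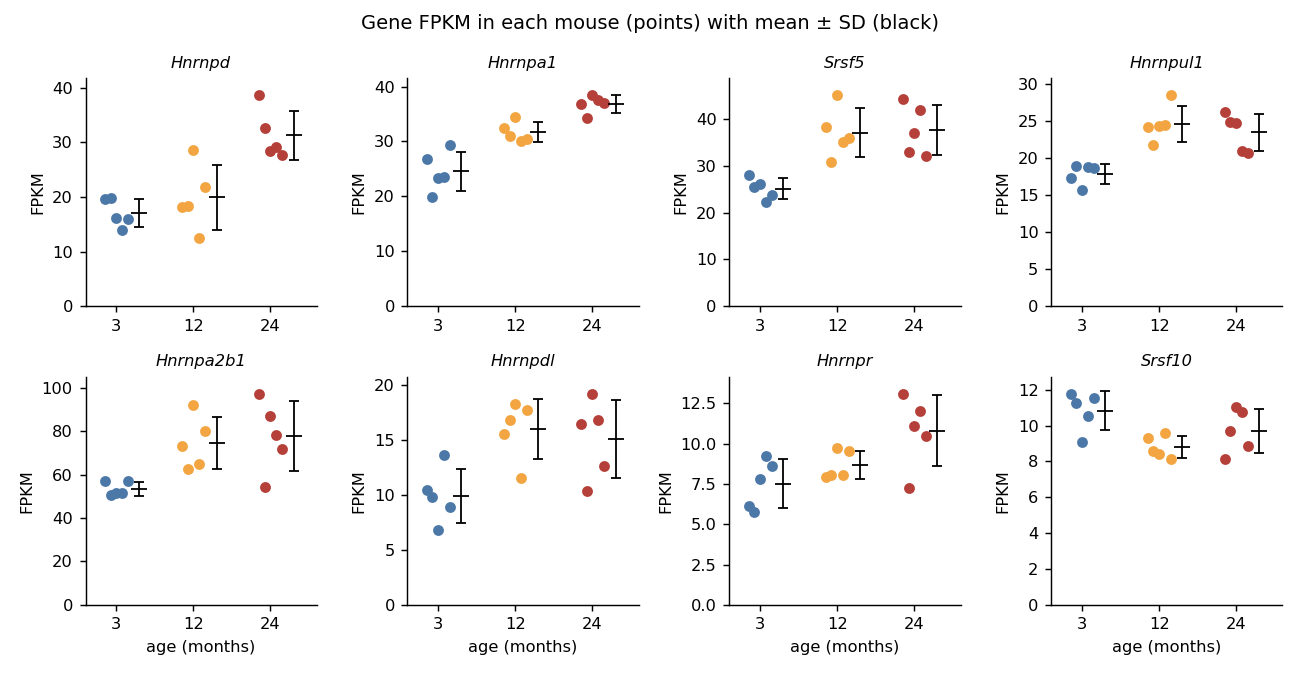
Gene FPKM (y axis) by age in months (x axis) in each of the 15 mice for 8 members, with the mean and SD of each age in black. Hnrnpd, Hnrnpa1, Srsf5 and Hnrnpul1 show no overlap between 3 and 24 months. Old mouse 32 lies within the young range in Hnrnpa2b1, Hnrnpdl and Hnrnpr, and old mouse 35 also does in Hnrnpdl.

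The promoters of the 3 genes that rose are shown because these were the members that passed at 24 against 3 months, with different courses by 12 months. Each is given from 250 bases before to 1 base before the RefSeq start (GRCm38.p6), 5′ to 3′ on the strand of the gene. Matches to 6 motifs were sought on either strand. Capitals mark the E-box CACGTG, the D-box TTATGTAA, the CCAAT box, the heat shock element core GAANNTTC and the TATA box TATAAA, while matches to the GC box GGGCGG are given as counts.
Hnrnpa1, chr15:103240147-103240396, plus strand: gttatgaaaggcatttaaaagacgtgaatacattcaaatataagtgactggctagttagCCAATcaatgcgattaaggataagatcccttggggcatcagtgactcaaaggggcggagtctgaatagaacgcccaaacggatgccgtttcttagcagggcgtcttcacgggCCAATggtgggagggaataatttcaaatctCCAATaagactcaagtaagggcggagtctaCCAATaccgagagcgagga
Hnrnpd, chr5:99978939-99979188, minus strand: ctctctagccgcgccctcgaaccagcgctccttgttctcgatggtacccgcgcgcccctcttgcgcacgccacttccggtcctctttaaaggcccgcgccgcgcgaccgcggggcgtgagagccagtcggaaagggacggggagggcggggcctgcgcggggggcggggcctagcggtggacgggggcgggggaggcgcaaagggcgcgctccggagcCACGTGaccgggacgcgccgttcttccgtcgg
Srsf5, chr12:80945249-80945498, plus strand: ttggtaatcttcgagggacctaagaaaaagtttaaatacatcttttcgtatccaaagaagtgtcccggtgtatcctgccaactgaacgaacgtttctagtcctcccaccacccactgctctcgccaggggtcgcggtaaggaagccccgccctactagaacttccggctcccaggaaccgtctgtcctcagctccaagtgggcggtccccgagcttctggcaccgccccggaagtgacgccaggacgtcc

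The GC box was in all of these promoters, with 2 matches in that of Hnrnpa1, 3 in that of Hnrnpd and 3 in that of Srsf5. Apart from it, the promoter of Hnrnpa1 held 4 CCAAT boxes at 46.0% GC, that of Hnrnpd held 1 E-box at 74.4% GC, and that of Srsf5 held none of the other 5 motifs at 56.8% GC. The median GC over all promoters was 52.4%. The members had 41 promoter entries from 29 genes, and a gene with several starts has overlapping or neighbouring entries. Counted by entry, a GC box was found in 33 of the 41, or 80.5%, and in 32.7% of all 32851 promoters. The GC content of the member entries ran from 46.0% to 81.2%, and most were above the median of all promoters. The motif counts were not adjusted for GC content. A CCAAT box was found in 20 entries, or 48.8%, and in 33.8% of all promoters. An E-box was found in 3 entries and in 6.02% of all promoters, and a heat shock element core in 4 entries and in 6.69% of all promoters. The D-box was in 0 entries and in 0.819% of all promoters, and the TATA box in 3 entries and 12.4% of all promoters. A match describes the letters only.

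The remaining 6 members with an unadjusted p under 0.05 at 24 against 3 months were hnRNPs. Hnrnpul1, a nuclear protein related to hnRNP U, had 17.4, 18.9, 15.7, 18.8 and 18.7 FPKM in young mice, 24.2, 21.8, 24.3, 24.5 and 28.5 FPKM at 12 months and 26.2, 24.8, 24.7, 21.001 and 20.7 FPKM in old mice. Both later ages lay above all young mice. Its log2 fold change was 0.37 (SE 0.084, adjusted p = 0.0712, limma), and 0.44 at 12 against 3 months (SE 0.080, adjusted p = 0.0668, limma). With all 15 mice in 1 fit it passed in both comparisons, with adjusted p of 0.0390 and 0.0330 (limma). Hnrnpa2b1, which sorts microRNAs into exosomes, ranked second in level among the members. It had 56.95, 50.5, 51.5, 51.5 and 56.99 FPKM in young mice, 73.1, 62.8, 92.2, 64.97 and 80.1 FPKM at 12 months and 97.3, 54.5, 87.1, 78.4 and 71.7 FPKM in old mice. Of the later mice only old mouse 32 overlapped the young range. Its log2 fold change was 0.51 (SE 0.14, adjusted p = 0.12, limma), and 0.63 (adjusted p = 0.0273, limma) without that mouse. At 12 against 3 months it was 0.46 (SE 0.11, adjusted p = 0.10, limma).

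Hnrnpdl, a close relative of Hnrnpd, had 10.5, 9.75, 6.83, 13.6 and 8.86 FPKM in young mice, 15.5, 16.8, 18.3, 11.5 and 17.7 FPKM at 12 months and 16.4, 10.3, 19.2, 16.8 and 12.6 FPKM in old mice, with overlap between all ages. Its log2 fold change was 0.56 (SE 0.20, adjusted p = 0.21, limma) at 24 months and 0.65 (SE 0.17, adjusted p = 0.14, limma) at 12 months, each against 3 months. Hnrnpr, which binds mRNAs transported in neurons, had 6.14, 5.76, 7.81, 9.204 and 8.64 FPKM in young mice, 7.95, 8.08, 9.74, 8.06 and 9.53 FPKM at 12 months and 13.1, 7.28, 11.1, 12.03 and 10.5 FPKM in old mice. Old mouse 32 lay within the young range and the other 4 above it, and the log2 fold change was 0.47 (SE 0.17, adjusted p = 0.22, limma). Hnrnpll, a regulator of exon choice in lymphocytes, had 10.03, 9.59, 8.02, 9.08 and 8.61 FPKM in young mice, 10.99, 7.73, 9.604, 9.02 and 9.75 FPKM at 12 months and 11.3, 10.4, 9.38, 11.7 and 10.5 FPKM in old mice. Hnrnpm, a splicing factor that binds GU-rich RNA, had 12.7, 11.9, 13.1, 11.5 and 14.7 FPKM, 14.2, 10.9, 14.6, 16.6 and 14.5 FPKM and 15.5, 14.3, 15.4, 14.9 and 14.5 FPKM at the same ages. Both genes had a log2 fold change of 0.21 at 24 against 3 months, and the ages overlapped in both.

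At 12 against 3 months 0 members passed after adjustment in limma, where 0.25% of all 31637 genes tested did. At an unadjusted p under 0.05 the count was 9, with 8 higher and 1 lower, against 11.4% of all genes higher and 2.9% lower. Hnrnpa1, Hnrnpa2b1, Hnrnpul1 and Srsf5 were higher without overlap, as were 3.45% of all genes. By estimate 16 of 20 hnRNP genes and 3 of 11 SR genes were higher, against 64% of all genes. Among genes with a mean of at least 1 FPKM, 0.413% passed. The member that was lower was Srsf10, an SR protein that represses splicing when dephosphorylated in heat shock. It had 11.8, 11.3, 9.06, 10.5 and 11.5 FPKM at 3 months, 9.32, 8.57, 8.43, 9.56 and 8.11 FPKM at 12 months and 8.13, 9.67, 11.1, 10.7 and 8.84 FPKM at 24 months, and only young mouse 7 lay inside the 12-month range. The log2 fold change was -0.27 (SE 0.080, adjusted p = 0.18, limma). Srsf9, the least abundant SR gene above 1 FPKM on average, had 4.25, 3.799, 3.81, 4.11 and 3.96 FPKM in young mice, 6.17, 4.31, 6.48, 4.04 and 6.16 FPKM at 12 months and 6.56, 3.99, 4.996, 4.44 and 3.61 FPKM in old mice. The young mice were close together, while the later ages were spread (log2 fold change 0.35 at 12 months, SE 0.12, adjusted p = 0.25, limma). Hnrnpc, a binder of uridine tracts, had 14.7, 14.3, 15.4, 16.03 and 12.6 FPKM in young mice, 16.7, 17.5, 17.4, 17.1 and 14.9 FPKM at 12 months and 17.5, 12.3, 16.8, 12.8 and 15.8 FPKM in old mice, which overlapped (log2 fold change 0.19 at 12 months, adjusted p = 0.30, limma). Hnrnpl, which binds CA repeats, had 39.6, 43.5, 45.2, 45.8 and 44.8 FPKM, 50.7, 43.9, 45.8, 55.9 and 56.02 FPKM and 44.7, 52.1, 46.5, 40.2 and 46.2 FPKM at the same ages, also with overlap (0.20, adjusted p = 0.34, limma).

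At 24 against 12 months 0 members passed after adjustment in limma, as against 0.0031% of 32282 genes. At an unadjusted p under 0.05 there were 6, all higher, while 3.07% of all genes were higher and 3.36% lower, or 6.43% in all. They included Hnrnpa1 and Hnrnpd (log2 fold change 0.66, SE 0.19, adjusted p = 0.67, limma). Hnrnph3, a small relative of hnRNP H, had 11.7, 17.7, 11.2, 15.1 and 11.2 FPKM in young mice, 11.5, 12.7, 12.4, 14.1 and 14.3 FPKM at 12 months and 13.8, 13.9, 18.1, 18.7 and 17.3 FPKM in old mice (0.30, SE 0.10). Srsf7, which also takes part in mRNA export, had 5.97, 7.63, 4.98, 6.64 and 5.601 FPKM, 5.41, 5.76, 6.57, 5.92 and 5.52 FPKM and 4.96, 7.21, 9.53, 8.93 and 8.23 FPKM at the same ages (0.34, SE 0.14), with 1 old mouse below all those of 12 months. Hnrnpa3, a close relative of hnRNP A1, had 49.2, 26.4, 39.6, 35.1 and 41.2 FPKM in young mice, 39.7, 37.4, 44.7, 38.6 and 37.5 FPKM at 12 months and 41.99, 39.3, 47.7, 50.99 and 48.8 FPKM in old mice (0.20, SE 0.085). In the genes of this group the ages of 12 and 24 months overlapped. The sixth was Hnrnpa0, a gene with 1 listed transcript. It was listed at 0 in the young mouse 8 and in the 12-month-old mice 17, 18, 19 and 20, and at 6.61 to 9.06 FPKM in the other 10 mice. A value of exactly 0 in a gene otherwise measured at this level may be a failed estimate, so no fold change is given for it.

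Among the other members, Hnrnpk, a poly(C)-binding protein, was the most abundant. It had 79.04, 75.6, 90.3, 76.7 and 81.4 FPKM in young mice, 87.2, 79.7, 80.4, 94.3 and 99.2 FPKM at 12 months and 83.2, 79.6, 112, 89.7 and 83.5 FPKM in old mice, which overlapped. Hnrnpa2b1, Hnrnpl and Hnrnpa3 followed with means over the 15 mice of 68.6, 46.7 and 41.2 FPKM. Hnrnpl and Hnrnpa3 overlapped in their values. The members that did not pass at an unadjusted p under 0.05 in any comparison were Hnrnpab, Hnrnpf, Hnrnph1, Hnrnph2, Hnrnpk, Hnrnpu, Hnrnpul2, Srsf1, Srsf2, Srsf3, Srsf4, Srsf6, Srsf11 and Srsf12. Srsf2 was the most variable of those above 1 FPKM in every mouse, at 11.0 to 42.3 FPKM in the young mice alone. Srsf12 was at a mean of 0.04 FPKM at each age, where a change is not detectable.

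Pseudogene copies bear on 3 further members. For Hnrnpf, 5 listed pseudogenes matched at 95% identity or more, and together they held 20.1 FPKM at 3 months and 37.3 FPKM at 24 months. The gene itself held 22.3 and 23.8 FPKM, so the copies were near its level at 3 months and above it at 24 months. For Hnrnpc, the pseudogene Gm12696 was listed at a mean of 8.50 FPKM beside 15.5 FPKM for the gene. For Hnrnpa3, 25 listed copies summed to 21.5% of the FPKM of the gene. In all, 11 members had at least 1 matching pseudogene, listed or not, and 12 had a gene on the opposite strand.

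Of the other genes of splicing, 3 passed after adjustment at 24 against 3 months. At an unadjusted p under 0.05, 11.4% of all genes were higher and 3.47% lower, beside which the counts of each list are given. Of 11 kinases and phosphatase regulators of SR proteins, 0 passed after adjustment in limma, and 1 (Ppp1r8, a nuclear inhibitor of a protein phosphatase) was higher at an unadjusted p under 0.05. Of 22 SR-related proteins, Tra2a fell, from 12.6 ± 2.53 to 5.87 ± 1.65 FPKM (log2 fold change -0.99, SE 0.17, adjusted p = 0.0327, limma), and 6 others were higher at an unadjusted p under 0.05. Tra2a encodes a protein that promotes exon inclusion together with SR proteins. Its adjusted p was 0.124 with annotated transcripts only and between 0.0505 and 0.0736 without any 1 of the young mice or without the old mouse 31, 32, 34 or 35 (limma). Among 13 hnRNPs known under other names, Cirbp rose from 4.85 ± 1.59 to 14.5 ± 3.77 FPKM (log2 fold change 1.42, adjusted p = 0.0250, limma), and 6 of the 13, Cirbp included, were higher and 1 lower at an unadjusted p under 0.05. With annotated transcripts only Cirbp had a log2 fold change of 0.63 (adjusted p = 0.44, limma), and without the young mouse 6 or 9 or the old mouse 33 or 34 its adjusted p was 0.0509 to 0.0597 (limma). Among 18 Sm and tri-snRNP proteins, Snrnp200, the helicase that unwinds the U4 and U6 RNAs, rose (log2 fold change 0.39, adjusted p = 0.0477, limma), and 4 of the 18, with it, were higher and 0 lower at an unadjusted p under 0.05. The adjusted p of Snrnp200 was between 0.0517 and 0.103 (limma) without any 1 mouse and under the other settings apart from both scalings. Of 28 tissue splicing regulators tested, 19 U1 and U2 snRNP proteins and 14 nonsense-mediated decay factors, 0 passed in limma. At an unadjusted p under 0.05 the tissue regulators had 5 genes higher and 2 lower, the U1 and U2 proteins 4 higher and 1 lower, and the decay factors 2 higher and 4 lower. The median log2 fold changes of these 7 lists lay between 0.01 and 0.13.

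Other groups of genes also differed between the ages. Of 10 temperature-responsive genes, which include Cirbp, 2 rose and 4 fell at 24 against 3 months at an adjusted p under 0.05 in limma. Of all genes, 1.22% passed in that comparison. Rbm3, a cold-induced RNA-binding protein, rose from 15.96 ± 2.83 to 31.3 ± 2.64 FPKM. The chaperone genes Hsph1 and Hspa5 fell from 32.2 ± 5.21 to 13.4 ± 2.25 FPKM and from 59.9 ± 8.46 to 28.6 ± 5.87 FPKM. The sum of the list was 820 to 1178 FPKM in young, 564 to 704 FPKM in 12-month-old and 522 to 631 FPKM in old mice. Of 14 clock genes, 2 rose and 2 fell at the same threshold. Arntl and Npas2, activators of the clock, fell from 11.9 ± 3.30 to 1.45 ± 1.35 FPKM and from 5.07 ± 1.57 to 0.52 ± 0.33 FPKM, and Dbp, a clock-controlled gene, rose from 1.17 ± 0.89 to 12.3 ± 6.84 FPKM. The adjusted p of Arntl was 0.0805 and that of Npas2 0.13 with annotated transcripts only, and that of Dbp 0.0529 or 0.0562 without the young mouse 5 or the old mouse 33 (limma). The 14 genes summed to 102 to 137 FPKM and 110 to 185 FPKM. The 4 markers of B and plasma cells were all higher at 24 against 3 months at an unadjusted p under 0.05, as were 11.4% of all genes. After adjustment 0 of them passed in limma. They summed to 9.83 to 93.2 FPKM in young, 53.0 to 372 FPKM in 12-month-old and 86.8 to 199 FPKM in old mice. No gene of these 3 lists was at 0 in every mouse of an age. Their part in the members' changes was not tested.

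The table listed 350 transcripts for the 31 members, from 1 to 29 for a gene. Of these, 110 were annotated as protein-coding, 62 as retaining an intron and 29 as targets of nonsense-mediated decay, and 118 were assembled from the reads. The transcript with the largest mean share of the gene's FPKM was protein-coding in 19 members, assembled in 6, a retained-intron form in 5 and a processed transcript in 1. It led in every mouse that had the gene above 0 in 6 members. Hnrnpk-201, with 60.6% of Hnrnpk on average, and Srsf9-201, with 89.5% of Srsf9, were such leaders. In contrast, 6 different transcripts of Hnrnpl led in 1 mouse or another, and Hnrnpl-208, a retained-intron form, held 17.9% on average.

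Non-coding transcripts were listed for many members. Retained-intron transcripts were listed for 19 of the 30 members with a mean of at least 1 FPKM, or 63.3%, and for 46.0% of all such genes. Decay targets were listed for 17 members, or 56.7%, and for 21.1% of all such genes. The members had a median of 9 transcripts listed. Neither comparison was adjusted for the number of transcripts or the type of gene. Where listed, retained-intron forms took a median of 12.8% of the gene's FPKM in the members and 13.6% in all genes, and decay targets took 7.45% and 3.58%. Retained-intron forms were highest in Srsf3 at 43.3% and Srsf6 at 43.0%. Decay targets were highest in Hnrnpd at 18.3%, Srsf3 at 17.7%, Srsf11 at 16.97% and Hnrnpl at 14.4%.

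**Figure D3:**
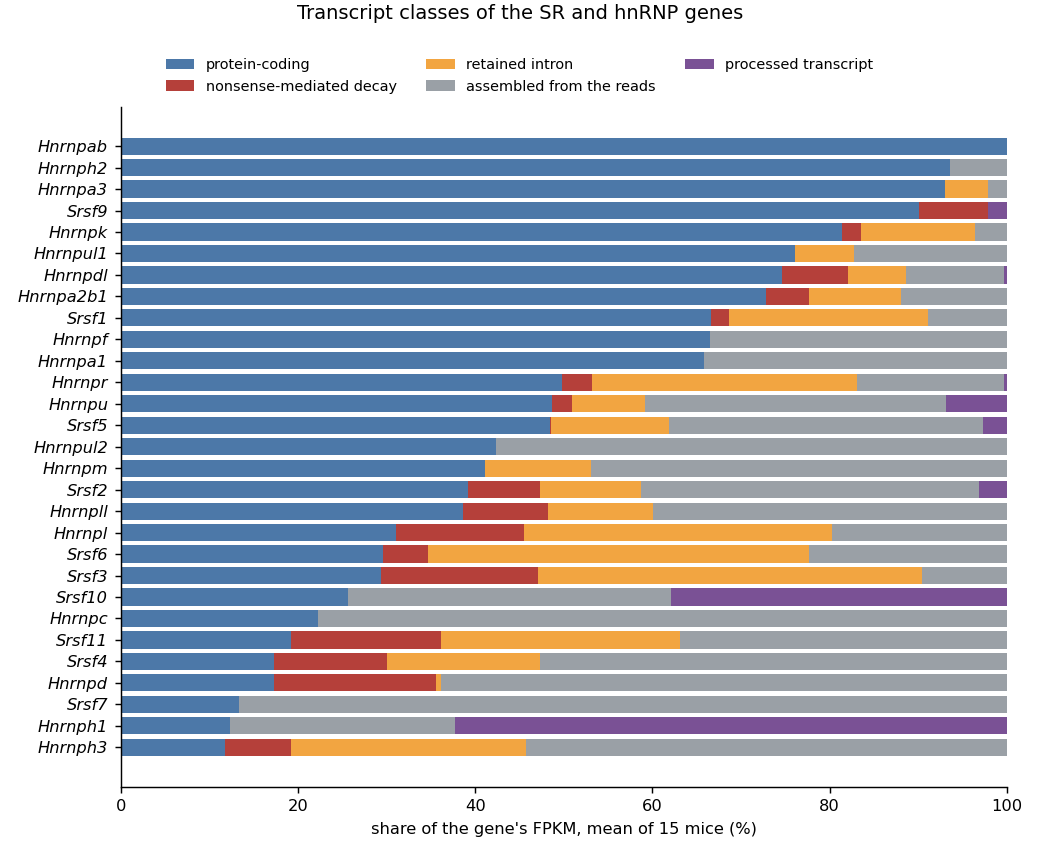
Mean share of each gene's FPKM over 15 mice (x axis, percent) taken by each class of transcript (colours) in 29 members (rows, ordered by the protein-coding share). Hnrnpab is wholly protein-coding, whereas protein-coding forms take 11.8% of Hnrnph3 and 12.3% of Hnrnph1.

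Several decay targets owe their stop codon to an exon that no protein-coding transcript of the gene uses. These exons are printed because they carry the early stop codon of decay targets that were measured here. Each sequence runs 5′ to 3′ on the strand of the gene, from the start of the exon to the stop codon, which is in capitals. The reading frame ends there, and the rest of the exon is not shown. The coordinates (GRCm38) cover the printed bases, and the sequences are from GENCODE M21.
Srsf3-201, chr17:29039454-29039487, plus strand: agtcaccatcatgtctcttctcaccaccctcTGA
Srsf4-203, chr4:131884276-131884390, plus strand: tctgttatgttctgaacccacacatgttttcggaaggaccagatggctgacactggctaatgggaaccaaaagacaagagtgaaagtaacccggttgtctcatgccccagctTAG
Srsf9-205, chr5:115328347-115328428, plus strand: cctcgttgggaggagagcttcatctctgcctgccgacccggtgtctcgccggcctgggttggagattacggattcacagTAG
Srsf11-206 and Srsf11-210, chr3:158024209-158024231, minus strand: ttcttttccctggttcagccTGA
Srsf11-212, chr3:158023310-158023359, minus strand: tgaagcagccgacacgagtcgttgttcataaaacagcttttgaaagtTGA
Hnrnpl-213, chr7:28817335-28817393, plus strand: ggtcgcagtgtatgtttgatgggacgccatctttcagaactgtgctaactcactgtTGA
Hnrnpll-203, chr17:80044976-80045022, minus strand: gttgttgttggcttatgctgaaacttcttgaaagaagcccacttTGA

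Srsf3-201 carries the longest of these exons, at 456 bases. Its share of Srsf3 was 15.6, 25.04, 11.01, 26.8 and 20.1% in young mice, 21.3, 24.02, 21.3, 14.9 and 23.7% at 12 months, and 14.8, 18.5, 6.41, 13.9 and 8.62% in old mice. Among the old mice only mouse 32 lay within the 12-month range, the others were below it, and young and old mice overlapped. The difference was -8.59 percentage points at 24 against 12 months (SE 3.38, unadjusted p = 0.0287, adjusted p = 0.89, limma) and -7.29 points at 24 against 3 months (SE 4.01, adjusted p = 0.79, limma). Srsf9-205 averaged 9.99 ± 2.97% at 3 months, 7.73 ± 2.42% at 12 months and 5.70 ± 3.14% at 24 months (SD, n = 5), and the difference of -4.29 points between 24 and 3 months had an adjusted p of 0.79 (limma).

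Srsf11-212 had 7.66, 3.88, 2.88, 7.08 and 9.83% in young mice and 0.961, 3.97, 4.04, 2.42 and 3.06% in old mice, a difference of -3.38 points (SE 1.501, adjusted p = 0.78, limma). Srsf11-206 and Srsf11-210, which share an exon, differed by -3.48 and 1.51 points, and the latter averaged 4.61, 5.41 and 6.12% at 3, 12 and 24 months. Hnrnpl-213 spread from 3.68 to 38.3% among the young mice alone, and its means at 3, 12 and 24 months were 16.1, 14.4 and 12.7%. Hnrnpll-203 averaged 11.5, 9.01 and 8.30%, and Srsf4-203 5.49, 4.85 and 4.30%. Srsf4-204, which begins its exon further on and ends at the same stop codon, averaged 6.16, 7.86 and 9.62%. None of these transcripts passed after adjustment in any comparison, and Srsf3-201 and Srsf11-212 were the only ones at an unadjusted p under 0.05.

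**Figure D4:**
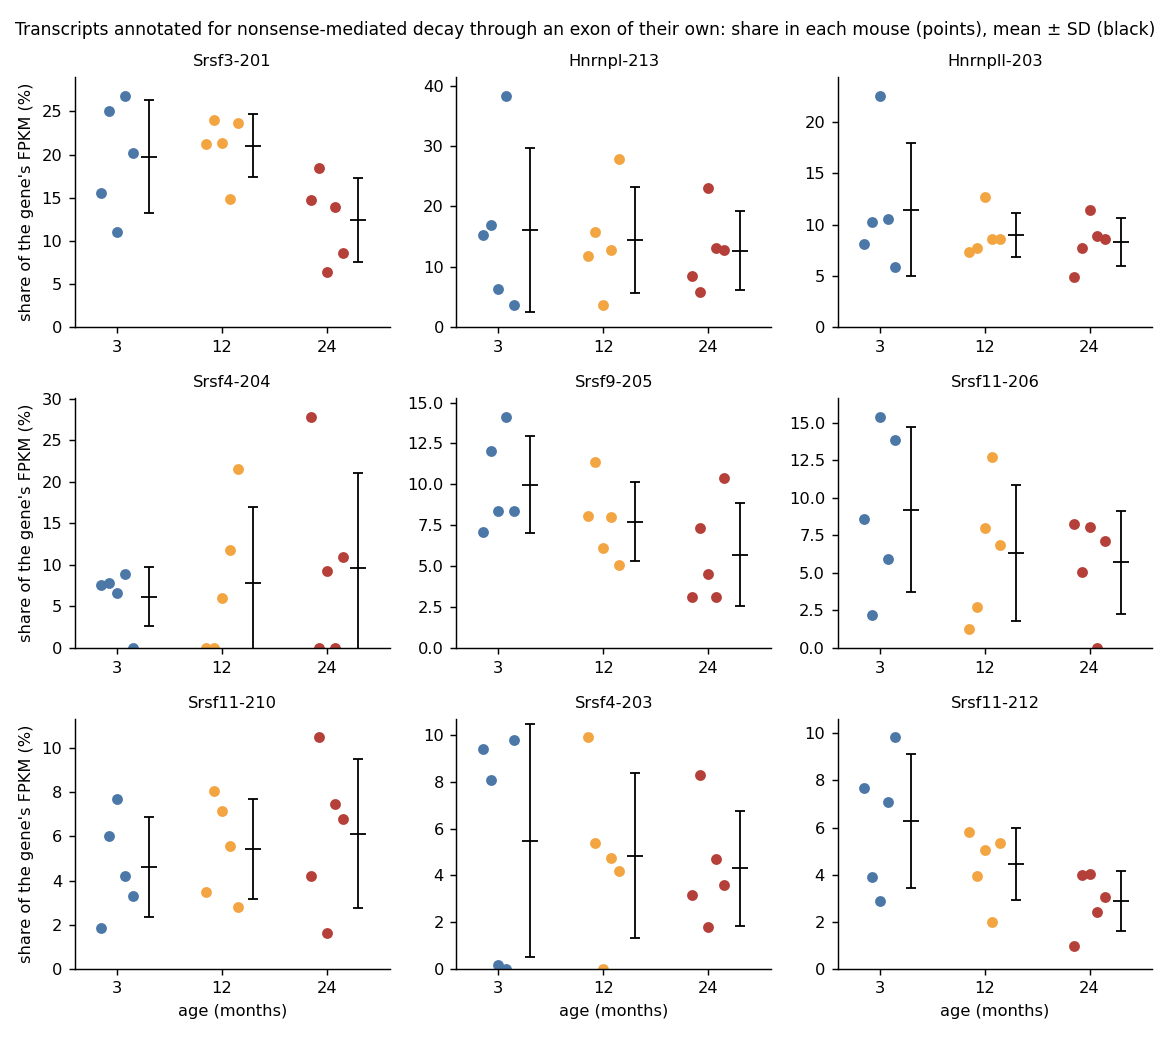
Share of the gene's FPKM (y axis, percent) by age in months (x axis) in each mouse for 9 transcripts annotated as targets of nonsense-mediated decay through an exon of their own, with the mean and SD of each age in black. Young and old mice overlap in all 9, and the mean at 24 months is the lowest of the ages in 7, for example 12.4% in Srsf3-201, and the highest in Srsf4-204 and Srsf11-210.

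Summed over a gene's decay targets, 14 of 17 members had a lower share at 24 than at 3 months by estimate, where 49.1% of 2822 genes did, and 0 passed after adjustment in limma, as 0.0354% of all genes did. Those with an unadjusted p under 0.05 were Hnrnpdl, from 9.83 to 4.16% (SE 2.32 points, adjusted p = 0.77, limma), and Hnrnpa2b1, from 7.48 to 3.39% (SE 1.80 points, adjusted p = 0.77, limma). Both were lower, as were 2.69% of all genes, and 5.21% of all genes differed in either direction. For retained-intron forms, 12 of 19 members were lower by estimate at 24 than at 3 months against 44.7% of 6152 genes, with 0 at an unadjusted p under 0.05 in limma against 8.4% of all genes. Between 3 and 12 months Hnrnpdl went from 9.29 to 3.67% (SE 1.69 points, adjusted p = 0.55, limma) and Hnrnpa2b1 from 12.9 to 8.37% (SE 1.897 points, adjusted p = 0.61, limma), the 2 lower among 19 members, while 4.34% of all genes were lower and 7.8% differed in either direction. For decay targets, Hnrnpr went from 5.86 to 1.94% between these ages (adjusted p = 0.78, limma), the 1 member at an unadjusted p under 0.05, where 6.26% of all genes were.

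At 24 against 12 months changes went in both directions and 0 passed after adjustment in limma, as 0.0161% of all genes did for retained-intron forms and 0% for decay targets. The retained-intron share was lower by estimate in 7 of 19 members, against 41.0% of 6224 genes, and that of Hnrnpdl went from 3.67 to 6.58% (SE 1.21 points, unadjusted p = 0.0352, adjusted p = 0.83, limma), the 1 member at an unadjusted p under 0.05, where 5.85% of all genes were. The decay share was lower by estimate in 13 of 17 members, against 48.4% of 2842 genes. Hnrnpu went from 0.90 to 3.73% (SE 1.14 points, unadjusted p = 0.0345, adjusted p = 0.89, limma) and Srsf3, with Srsf3-201 as its only decay target listed, from 21.03 to 12.4% (SE 3.17 points, unadjusted p = 0.0229, adjusted p = 0.89, limma), the 2 members at an unadjusted p under 0.05, where 4.05% of all genes were.

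Single transcripts gave no call either. At 24 against 3 months, 275 member transcripts were tested and 19 had an unadjusted p under 0.05, or 6.91%, against 6.34% of all 63487 transcripts, and 0 passed after adjustment in limma, as 0.0063% of all transcripts did. The counts were 15 of 274 at 12 against 3 months and 9 of 272 at 24 against 12 months, beside 6.1% and 4.32% of all transcripts. In simulated data for 24 against 3 months, a true change of 10 percentage points was called after adjustment in 1 of 200 transcripts. At an unadjusted p under 0.05 in limma, 49.5% of the 200 were found. The simulated shares were drawn separately for each transcript, whereas real shares of a gene depend on each other. In that setting, shares that moved by this much could mostly not be called after adjustment.

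The member transcripts with the smallest p-values and a difference of at least 5 points are given by their values. Srsf11-201, a protein-coding form, took 0.587, 7.13, 0, 0 and 0.837% of Srsf11 in young mice, 4.25, 1.61, 4.45, 4.598 and 6.54% at 12 months and 4.95, 7.84, 8.98, 12.01 and 8.06% in old mice, a difference of 6.66 points (SE 1.82, adjusted p = 0.75, limma). Only young mouse 6 lay within the old range. MSTRG.16193.1, an assembled form of Srsf7, took 15.1 to 22.9% in young and 21.3 to 52.5% in old mice, a difference of 20.5 points (SE 5.93). Srsf5-212, a retained-intron form of the gene that rose, took 2.78, 6.35, 6.997, 3.28 and 3.68% in young mice and 9.62, 12.8, 7.299, 11.1 and 10.4% at 12 months, which did not overlap, with a difference of 5.62 points (SE 1.73, adjusted p = 0.80, limma). In old mice its share was 6.44 to 11.1%.

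Assembled forms made up most of the rest. MSTRG.31251.9 of Hnrnpf (12.8 points), MSTRG.25944.7 of Srsf10 (12.1 points) and MSTRG.11251.13 of Hnrnpc (16.7 points) were higher by estimate at 24 than at 3 months. MSTRG.31251.7 of Hnrnpf differed by 11.7 points and MSTRG.27994.9 of Hnrnpd differed by -8.75 points at 12 against 3 months. At 24 against 12 months the differences were -11.0 points for MSTRG.24004.1 of Srsf11, -13.2 points for MSTRG.16193.2 of Srsf7 and -11.6 points for Srsf4-202, a protein-coding form. In the genes that rose, Hnrnpa1-202 held 60.1% at 3 months and 68.8% at 24 months, Srsf5-201 held 24.3 and 24.6%, and the assembled MSTRG.27994.11 held 37.05 and 38.1% of Hnrnpd.

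The circular RNA table held 34 entries from 16 of the members, of 11929 entries in all. Circular RNAs of exons (circRNAs) arise when the end of an exon is joined back to the start of an earlier one, and those of introns (ciRNAs) from lariats that escape debranching. Of the member entries 23, or 67.6%, were ciRNAs, against 9.38% of the whole table. The values are estimated counts and are given as CPM, each count scaled to the total of its mouse. A property of the table limits what they measure. In all 12874 pairs of entries of the same gene and kind where the interval of one lay within that of the other, the wider entry had at least the count of the narrower one in all 15 mice. The counts may thus include reads from the linear RNA or the intron within the interval, not only those across the back-splice junction.

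At 24 against 3 months 4 of the 34 entries passed, or 11.8%, against 13.3% of all 11924 tested (edgeR quasi-likelihood test, adjusted p under 0.05). Of these, 3 rose, against 6.66% of all entries, and 1 fell. At 12 against 3 months 1 passed, against 6.63% of all, and at 24 against 12 months 0 passed in edgeR and in DESeq2, with 5 at an unadjusted p under 0.05, against 0.738% of all passing. At 24 against 12 months 16.9% of all entries had an unadjusted p under 0.05. At an unadjusted p under 0.05 in edgeR, 11.8% of the member entries differed at 24 against 3 months and 8.82% at 12 against 3 months. The shares of all entries were 28.8% and 23.7%. The share that passed at 24 against 3 months was thus near that of the whole table, while these unadjusted shares were lower. Entries that overlap are not separate measurements.

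The back-splice junctions of the 3 entries that rose are printed to show what joins what. Each has the last 15 bases of the circle in lower case and the first 15 bases in capitals, 5′ to 3′, joined at the exon ends of the annotated transcript. The given interval is that of the whole circle (GRCm38).
circRNA1871 of Hnrnpd, chr5:99962515-99967387, minus strand, 6 exons: acttatccccaacagGAAAATGTTTATAGG
circRNA3967 of Hnrnph3, chr10:63015802-63019527, minus strand, 8 exons: gcttgggaggctatgCATTTAAATCAAGCA
circRNA8216 of Hnrnph3, chr10:63016080-63019527, minus strand, 7 exons: gcagagatggaatggCATTTAAATCAAGCA

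circRNA1871 of Hnrnpd had 56.2, 47.4, 46.1, 51.3 and 44.5 CPM in young mice, 60.9, 60.5, 82.0, 70.6 and 73.5 at 12 months, and 89.7, 54.5, 98.9, 96.9 and 97.2 in old mice. The 12-month-old mice were above all young mice, and only old mouse 32 was not. The log2 fold change was 0.75 at 24 against 3 months (SE 0.14, adjusted p = 0.00512, edgeR) and 0.46 at 12 against 3 months (SE 0.10, adjusted p = 0.0245, edgeR). The latter had an adjusted p of 0.0504 to 0.0606 (edgeR) when the 12-month-old mouse 19, 20 or 21 was left out. The linear gene had a log2 fold change of 0.84 and 0.17 in the same comparisons.

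Both entries of Hnrnph3 that rose start at the same exon, and circRNA8216 lies within circRNA3967, so they are not separate results. circRNA3967 had 27.9, 31.1, 27.2, 37.0 and 35.1 CPM in young mice and 42.3, 37.5, 46.2, 47.5 and 43.1 in old mice. These did not overlap as CPM, though the gap from 37.0 to 37.5 was small. The edgeR test scaled the mice by TMM instead, and overlap on that scale was not examined. The log2 fold change was 0.37 for both, with adjusted p of 0.0281 and 0.0264 (edgeR). The call was lost for both without the young mouse 7 or the old mouse 33, 34 or 35, and for circRNA3967 without the old mouse 31, with adjusted p between 0.0526 and 0.0740 (edgeR). The linear gene had a log2 fold change of 0.29 (SE 0.15), which did not pass. Further entries of Hnrnph3 within the same interval did not pass either. They were circRNA9895 (log2 fold change 0.24, SE 0.13, adjusted p = 0.22, edgeR) and ciRNA975 (0.43, SE 0.20, adjusted p = 0.18, edgeR).

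The entry that fell was ciRNA575, which covers 1 intron of Hnrnpa3 (chromosome 2, 75663715 to 75665027). It had 37.5, 26.2, 32.4, 41.7 and 43.5 CPM in young mice, 33.4, 25.5, 32.1, 30.2 and 15.2 at 12 months, and 21.1, 27.7, 20.4, 23.7 and 18.5 in old mice. Old mouse 32 and young mouse 6 were the only ones whose values overlapped. The log2 fold change was -0.78 (SE 0.15, adjusted p = 0.00573, edgeR), while the linear gene had 0.27 (SE 0.15) with a p that did not pass. The difference between these 2 measures was not tested. The retained-intron forms of Hnrnpa3 took 6.67 ± 2.49% of the gene at 3 months and 3.89 ± 1.76% at 24 months. This difference did not pass (adjusted p = 0.60, limma), and whether these forms keep the intron of ciRNA575 was not tested.

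**Figure D5:**
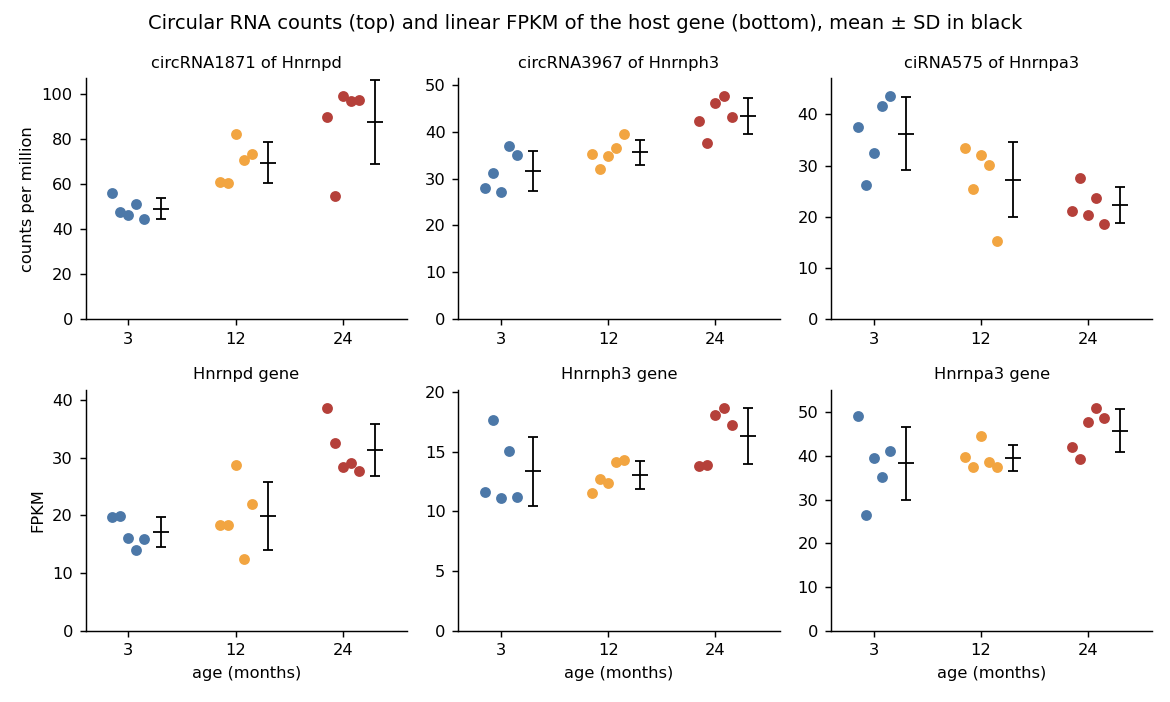
CPM (y axis, counts scaled to the total of each mouse) of 3 circular RNA entries (top row) and linear FPKM of their host genes (bottom row) by age in months, with 1 point per mouse and the mean and SD of each age in black. circRNA1871 and Hnrnpd are both higher in old mice, whereas ciRNA575 is lower in old mice while its host Hnrnpa3 overlaps between all ages.

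The most counted entries did not pass at 24 against 3 months. circRNA3597 of Srsf11 had a mean of 2599 counts, with 325 to 339 CPM in young mice, 275 to 305 at 12 months and 286 to 345 in old mice. Its log2 fold change at 12 against 3 months was -0.23 (SE 0.073, adjusted p = 0.0766 in edgeR and 0.00431 in DESeq2). circRNA1658 of Hnrnpc (mean count 1124), ciRNA547 of Hnrnpm (953) and circRNA304 of Hnrnpll (811) followed. At an unadjusted p under 0.05 circRNA1658 (log2 fold change 0.19), circRNA4626 of Hnrnpu (0.24) and circRNA8330 of Hnrnpul2 (-0.19) differed between 24 and 12 months, without passing after adjustment. The 9 entries of Hnrnpk fell into 2 sets with nearly the same intervals within a set, so they stand for 2 measurements. In Srsf3, ciRNA242 (chromosome 17, 29038625 to 29039453) and ciRNA103 (29039910 to 29040772) are the introns directly before and after the decay exon printed above, with log2 fold changes of 0.25 (SE 0.12) and -0.10 (SE 0.094) at 24 against 3 months, neither of which passed.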

How the data were processed

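Kidney RNA of 15 mice was sequenced, with 1 library per mouse. Per the labels, ribosomal RNA was removed and libraries were stranded, whereas the study's methods describe poly(A) selection. The authors mapped reads to GRCm38 with Ensembl annotation and assembled transcripts with StringTie; they deposited FPKM and mean coverage per transcript (coverage served only to compute aligned bases), and estimated counts and FPKM per circular RNA, whose method is not given in the sources used here. FPKM divides by the library's own total, and shares of transcripts depend on how overlapping reads were assigned. All titles begin with 3M; ages are from the age labels.

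Gene FPKM were summed over class codes =, c, j and o and compared on log2(FPKM + 1) with limma 3.58.1 (trend = TRUE), using the 10 mice of both ages and genes above 0 in any of them. Shares of transcripts and of classes, in percent, were compared the same way where the gene averaged at least 1 FPKM. The estimated counts, rounded, were compared with edgeR 4.0.16 (quasi-likelihood, TMM). Biotypes and sequences were from GENCODE M21, whose identifiers matched 99.5% of annotated transcripts. Pseudogene copies were sought with blastn 2.17.0. R 4.3.3 and Python 3.11.15 were used.

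The members, lists and tests were chosen with earlier results of these data known. Named in full were members with an unadjusted p under 0.05 in a comparison (at most 16) and the 4 most abundant, transcripts that also differed by at least 5 points (at most 12), and the circular RNAs chosen likewise. In simulated data for 24 against 3 months, limma called 71 of 200 genes changed by 0.7 on the log2 scale among 31755. edgeR called 178 of 200 circular RNAs changed by 1 on the log2 scale among 11924. The changed features were drawn only from those above a minimum level. The spread of the simulated counts was set, not estimated from these data. These rates therefore do not cover features at low levels. Alternatives were another pseudocount, filters, scalings, annotated transcripts only, all mice in 1 fit, a robust prior, DESeq2 1.42.0 and each mouse left out. No 2 mice of an age shared over 0.387% of gene values. Precision rests on the 5 mice per age.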

Additional observations from a re-analysis of the deposited data

Results flagged for a closer look

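In 90 sets of 5 mice (30 members at 3 ages), 6 had a mouse whose distance from the nearest other mouse was large for the range of its age by Dixon's criterion, where chance alone gives about 4.5. Hnrnpa0 accounted for 2 of them. It was listed at 0 in the young mouse 8, while the nearest mouse had 6.61 FPKM, and at 9.06 FPKM in the 12-month-old mouse 21, while the other 4 mice of that age were listed at 0. Hnrnph2 was at 6.22 FPKM in the young mouse 8, with the nearest mouse at 15.1 FPKM. Srsf1 was at 11.4 FPKM in the old mouse 32, with the nearest at 17.7 FPKM. Hnrnpc was at 14.9 FPKM in the 12-month-old mouse 21 (nearest 16.7 FPKM), and Srsf4 at 8.12 FPKM in the 12-month-old mouse 17 (nearest 6.03 FPKM).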

How the results depend on the processing

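None of the 66 single fold changes and shares recomputed under the alternatives reversed; they are those of named features at an unadjusted p under 0.05, and other printed values were not recomputed. The count of members that passed at 24 against 3 months was 3. It stayed within 2 and 4 under another pseudocount, a filter on FPKM, both other scalings, all 15 mice in 1 fit and a robust prior, was 0 with annotated transcripts only, and ranged from 1 to 4 when each mouse was left out. At 12 against 3 months the count of 0 became 1 with annotated transcripts only (Hnrnpul1) and 2 with all mice in 1 fit (Hnrnpul1 and Srsf5), and stayed 0 with each mouse left out. At 24 against 12 months it was 0 to 1 with each mouse left out, the 1 being Hnrnpa0 without the 12-month-old mouse 21, when all remaining mice of that age were listed at 0. For circular RNAs the counts with each mouse left out were 2 to 4 at 24 against 3 months, 0 to 1 at 12 against 3 months and 0 to 1 at 24 against 12 months, and DESeq2 gave 2 at 12 against 3 months. Transcript and class shares gave 0 throughout. The cause was not tested. Of the alternatives for single named values, 901 kept the side of the threshold, 66 lost it and 7 gained it. Over all genes the count at 24 against 3 months was 386, and 190 with annotated transcripts only, 678 with all mice in 1 fit and 239 with a robust prior. No paired analysis was possible because the ages share no replicate numbers. With 5 mice per age, the spread of shares between mice limits what could be seen.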
